A study of Mus musculus with 10 samples.

Results

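The interferon-induced genes Rsad2, Cmpk2, Mx1 and Mx2 were examined in region lists from chromatin immunoprecipitation followed by sequencing (ChIP-seq) of mouse macrophages. The members were all regions listed for RelA, the p65 subunit of NF-κB, or for the glucocorticoid receptor (GR) that overlapped either of 2 windows of the mm9 genome. These were chr12:27090000-27200000, the window of Rsad2 and Cmpk2, and chr16:97630000-97800000, the window of Mx1 and Mx2. They held 34 of the 114312 ChIP regions of the series. The windows were chosen from the RelA lists themselves, because they held many RelA regions at 3 h of lipopolysaccharide (LPS) and few at 8 h, so the numbers of RelA regions at those times describe the choice and are not a finding.

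The cells were macrophages grown from bone marrow of C57BL/6J mice. RelA was precipitated in 7 libraries. In 1 of them dexamethasone (Dex, a synthetic glucocorticoid) was given late and LPS for 8 h, at an hour of Dex that the labels do not state. In 3 of them Dex was given 3 h before LPS, and LPS lasted 0, 3 or 8 h. The other 3 RelA libraries had no Dex and LPS for 0, 3 or 8 h. GR was precipitated in 2 libraries, from cells with LPS and Dex and from cells with Dex alone, whose labels give no times and which had a protein cross-linker added before formaldehyde. Input DNA of untreated cells made up the last library. The list labelled 0 h of LPS was deposited under a name that gives 3 h and no LPS, and the late Dex list under a name that gives 3 h beside LPS, 3 h beside Dex, and 5 h. What these times stand for is not stated, and the labels were followed here, so comparisons with 0 h and with late Dex rest on the labels alone. The labels give each condition 1 library, so no spread between replicates is known and no test between conditions was made. Whether a higher signal came from more cells with the factor bound or from more factor per cell cannot be told apart in such pools of cells.

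LPS is sensed by Toll-like receptor 4, which activates NF-κB and, through the adaptor TRIF, the interferon regulatory factors that switch on interferon-β. Secreted interferon then acts back on the macrophage through its receptor, which leads to binding at interferon response elements in front of antiviral genes. Glucocorticoids bind GR, which occupies DNA directly or through other factors and is known for damping inflammatory genes. Rsad2 encodes viperin, an enzyme that turns CTP into a chain terminator of viral RNA synthesis. Cmpk2 encodes a mitochondrial nucleotide kinase and neighbours Rsad2. Mx1 and Mx2 encode dynamin-like antiviral GTPases. In C57BL/6J, as in many laboratory strains, the Mx1 gene is defective, and the RefSeq annotation of GRCm38.p6 lists both Mx genes as transcribed pseudogenes. That annotation puts Mx1 between Bace2 and Fam3b, and Mx2 next to Tmprss2. It is on another build than the region lists, so whether a region lies in a promoter, exon or intron was not determined here.

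The promoters of Rsad2 and Cmpk2 are shown because these genes sit beside each other in the window with the largest group of RelA regions. The sequences are those of RefSeq on GRCm38.p6, from 250 bases before to 50 after the gene start, 5′ to 3′ along the gene. That of Rsad2 is at chr12:26456403-26456702 on the minus strand and that of Cmpk2 at chr12:26468965-26469264 on the plus strand, so the genes are transcribed away from each other. These positions cannot be set against the mm9 positions of the regions. Capitals mark matches to the motifs named after them.
Rsad2: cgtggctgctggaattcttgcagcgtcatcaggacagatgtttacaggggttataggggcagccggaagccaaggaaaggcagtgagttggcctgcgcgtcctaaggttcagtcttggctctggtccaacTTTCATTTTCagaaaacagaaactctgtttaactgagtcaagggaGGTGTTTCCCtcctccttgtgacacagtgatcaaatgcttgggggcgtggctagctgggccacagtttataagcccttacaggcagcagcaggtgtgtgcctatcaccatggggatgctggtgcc
Cmpk2: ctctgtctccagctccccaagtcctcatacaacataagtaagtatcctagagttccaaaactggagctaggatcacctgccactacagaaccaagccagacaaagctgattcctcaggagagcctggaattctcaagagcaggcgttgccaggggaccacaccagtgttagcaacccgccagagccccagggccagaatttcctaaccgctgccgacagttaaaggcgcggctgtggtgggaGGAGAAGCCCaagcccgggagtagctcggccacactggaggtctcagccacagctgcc

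The Rsad2 promoter held 1 match to the interferon response motif (GAAA, any 2 bases, GAAA), on the reverse strand at bases 131 to 140, and the shorter core GAAANNGAA matched within it. No such match was found in these 300 bases of Cmpk2. Each promoter held 1 match to the NF-κB motif (GGG, any 5 bases, CC) on the reverse strand, at bases 176 to 185 for Rsad2 and 243 to 252 for Cmpk2. Both strands were searched. The NF-κB letters are loose and occurred in promoters of 53.5% of all 27025 genes in the table, while the interferon response motif occurred in 3.99%. Of 30 other interferon-induced genes, 25 had a promoter in the table. The interferon response motif was in 14 of these 25, among them Isg15 (a ubiquitin-like modifier), Ifit1 and Ifit3 (RNA-binding antiviral proteins), Cxcl10 (a chemokine) and Stat2. The glucocorticoid response motif (GNACA, any 3 bases, TGTNC) was in none of the 25 and in neither of the promoters printed, against 0.537% of all genes. Promoters of Mx1 and Mx2 are not shown here. A match is a run of letters and does not show that a factor was bound.

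RelA was listed in the windows almost wholly at 3 h of LPS without Dex. The Rsad2 and Cmpk2 window held 0, 13 and 1 RelA regions at 0, 3 and 8 h without Dex, and the Mx1 and Mx2 window held 0, 12 and 1. No RelA region was listed in either window with late Dex or in any of the 3 pretreated libraries. Those lists were short as a whole. They held 250 regions with late Dex, and 75, 84 and 78 with pretreatment and 0, 3 and 8 h of LPS, against 5017 at 3 h without Dex. No region of the windows overlapped input DNA, whose nearest region lay 67671 bp outside the Rsad2 and Cmpk2 window. Among all 4972 RelA regions at 3 h outside input, 0.744% were called at 0 h, 31.3% again at 8 h, 4.24% with late Dex and 0.241% with pretreatment and 3 h of LPS. The members' shares were 0 of 25 at 0 h, 2 of 25 at 8 h (8.00%, Wilson 95% interval 2.22 to 25.0, counting error only), and 0 of 25 in each Dex library, and a count of 0 in 25 allows a share of up to 12.0% if taken as 3 counts, or 13.3% by the Wilson interval. The share at 8 h reflects how the windows were found. The absence with late Dex, and with pretreatment and 3 h of LPS, is near the low background and says little about these genes. Of 3941 regions elsewhere with scores in the members' range, 30 (0.761%) were called with late Dex. For pretreatment with 0 or 8 h of LPS no such background share was computed, so the absence there is not read either.

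**Figure D1:**
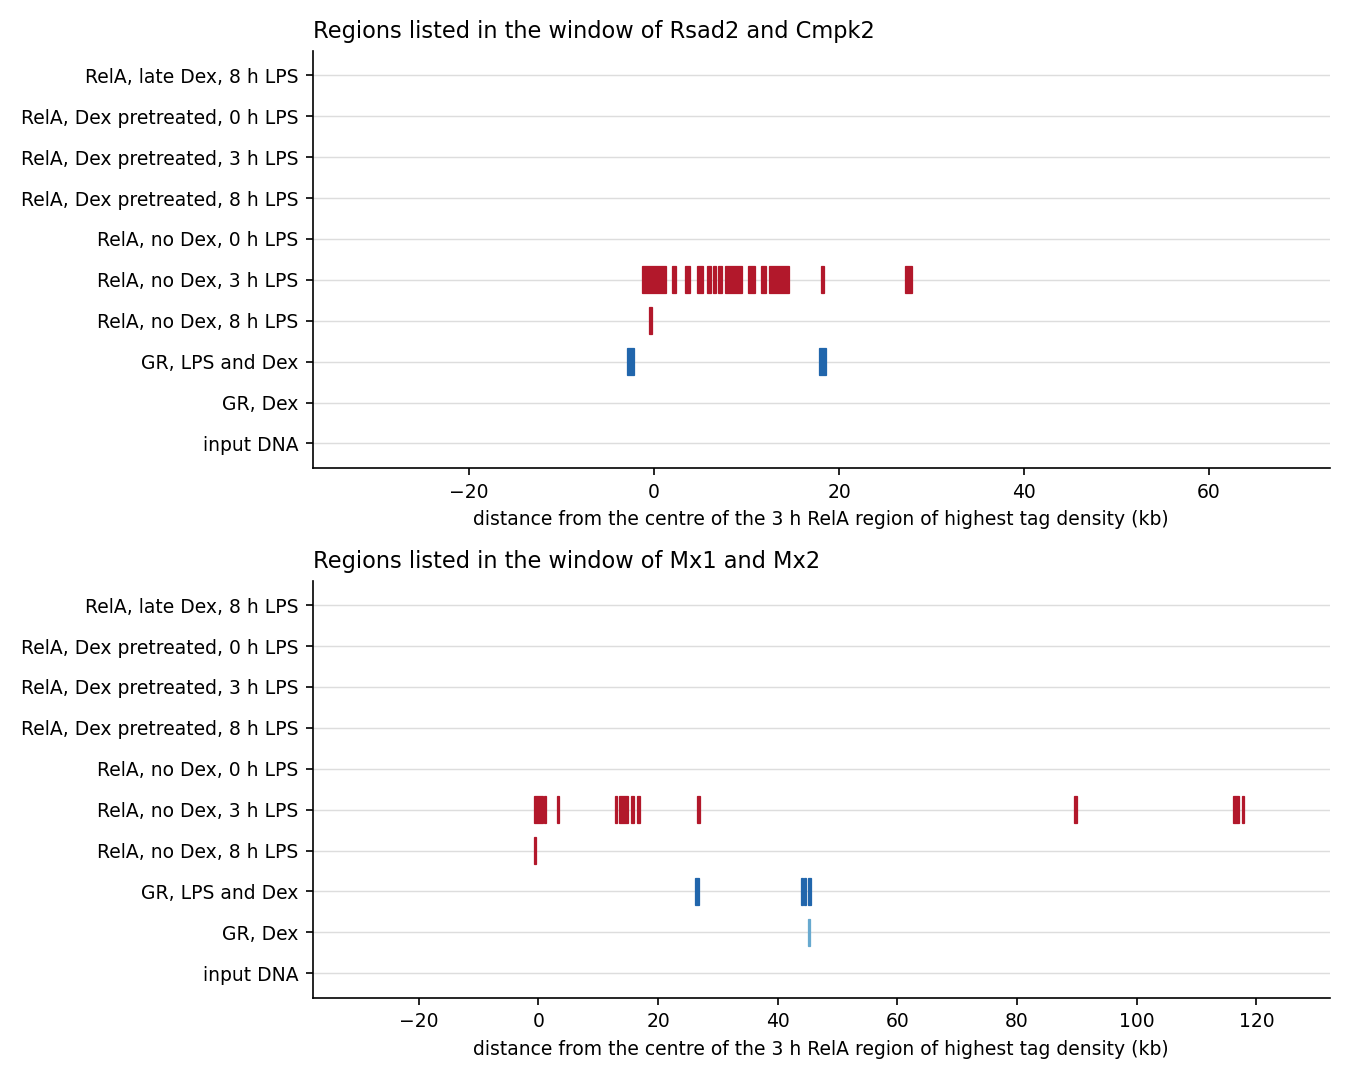
Regions of each list (rows) along the windows of Rsad2 and Cmpk2 (top) and Mx1 and Mx2 (bottom), with distance in kb from the centre of the 3 h RelA region of highest tag density. RelA regions sit in the row of 3 h without Dex, with 1 narrow region at 8 h in each window, and all rows of RelA with Dex are empty.

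The 13 RelA sites of the Rsad2 and Cmpk2 window began with a group of 11 regions from 27125626 to 27141555. Neighbours in it were 190 to 977 bp apart, and regions covered 68.6% of its 15929 bp. Whether they are 11 separate sites or pieces of 1 broad stretch of signal cannot be told from a list of regions, and their place relative to the Rsad2 gene was not determined; each listed region is called a site below. Each region is described by the authors' highest tag density and z-score, whose scaling between libraries is not given, so they are read within a list. The first site, chr12:27125626-27128222, had a tag density of 33.0 and a score of 22.8. It was 2596 bp wide, and only 10 of the 5017 regions of the 3 h list were wider. The last of the group, chr12:27139297-27141555, had a tag density of 29.3, a score of 23.7 and a width of 2258 bp. These sites at the ends were the highest of the group, so that the tag density dipped between them.

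The 9 sites between them were lower, with tag densities from 16.3 to 23.4. The broadest was chr12:27134594-27136444, 1850 bp wide with a tag density of 23.4 and a score of 13.6. Next to the first end lay chr12:27128865-27129282 with a tag density of 20.7 and a score of 11.9, and chr12:27130259-27130828 and chr12:27131564-27132201, both with a tag density of 19.0. The low middle held the site with the lowest tag density, 16.3 at chr12:27133283-27133615. On either side of it lay chr12:27132625-27133093 with 17.3 and chr12:27133839-27134316 with 17.7. Toward the far end, chr12:27137069-27137881 had a tag density of 18.1 and the lowest score of the window, 9.77, and chr12:27138524-27139029 had 21.5. None of the 9 was called in any other RelA list.

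Beyond the group were 2 further sites. At chr12:27144956-27145278, 3401 bp past the end of the group, the tag density was 17.8 and the score 10.3. The last site, chr12:27154032-27154834, stood 8754 bp further on with a tag density of 24.7 and a score of 16.8.

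**Figure D2:**
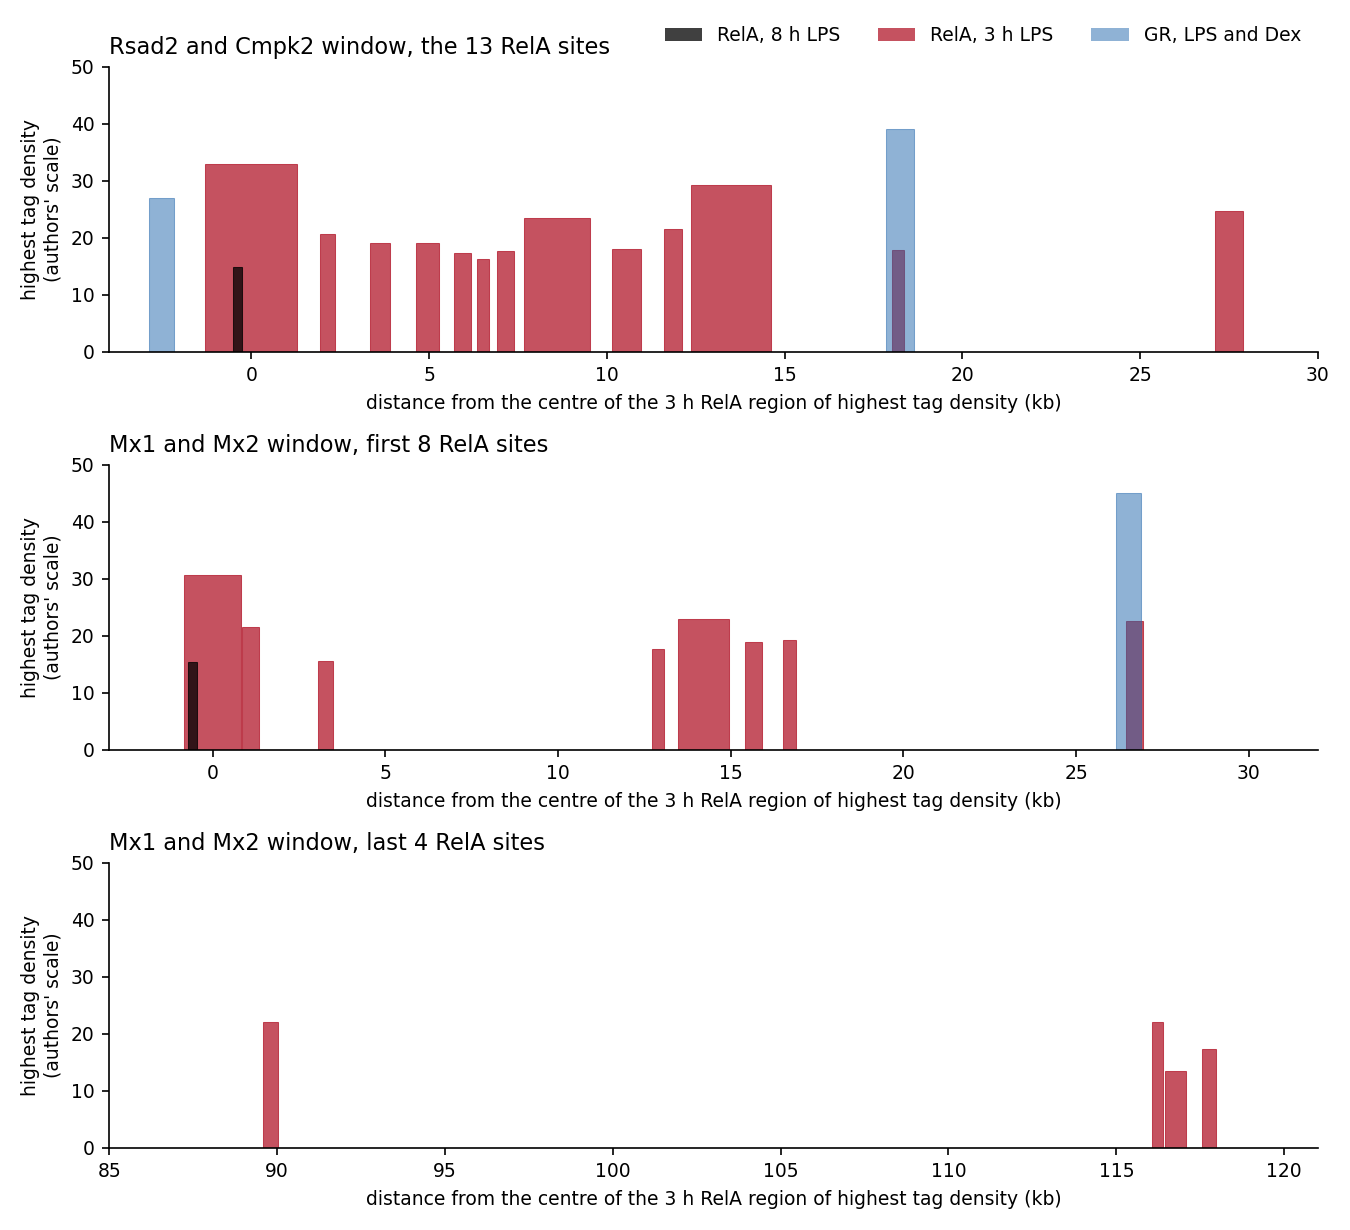
Highest tag density (authors' scale) of each region, drawn at its true width against distance in kb from the centre of the 3 h RelA region of highest tag density; RelA at 8 h is black, RelA at 3 h red and GR with LPS and Dex blue. The top panel shows RelA at 29.3 to 33.0 at the ends of the group of 11, with GR regions on either side and none within it.

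RelA sites of the Mx1 and Mx2 window fell into smaller groups over a longer stretch. The first group held 3 sites and its leader, chr16:97666912-97668568, had a tag density of 30.7, the highest RelA score of either window at 24.9, and a width of 1656 bp. Only 16 bp away lay chr16:97668584-97669078 with a tag density of 21.5 and a score of 10.6. The third, chr16:97670774-97671223, had 15.5 and 10.1. The leader is thus set apart from its neighbours by score.

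After a gap of 9233 bp came a group of 4 sites from 97680456 to 97684624. Its broadest site, chr16:97681216-97682696, had a tag density of 23.0 and a score of 14.0 over 1480 bp. The others were chr16:97680456-97680794, chr16:97683157-97683640 and chr16:97684262-97684624, with tag densities of 17.7, 18.9 and 19.2. The score of the last, 9.22, was the lowest of all 25 RelA sites, while the 3 h list as a whole began at 8.88.

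The remaining 5 sites were scattered. Single sites stood at chr16:97694185-97694676 with a tag density of 22.6, and 62639 bp further on at chr16:97757315-97757777 with 22.0. A last group of 3 lay at chr16:97783809-97784139, chr16:97784194-97784824 and chr16:97785282-97785705, with tag densities of 22.1, 13.5 and 17.4 and scores of 11.1, 9.74 and 11.2. Its middle site had the lowest tag density of all 25 RelA sites at 3 h.

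As a set, the 25 sites were ordinary in height. Their median tag density was 19.2 (quartiles 17.7 and 22.6), against 18.5 (14.6 and 25.6) for the 4947 regions of the 3 h list elsewhere, outside input. Their median score was 11.1, against 12.9 elsewhere, and their median width 491 bp, against 538 bp elsewhere. Some were broad: 5 of the 25 were wider than 1000 bp (20.0%), against 4.04% of the regions elsewhere. The ratio of mean to highest tag density, which is low for a sharp summit, had a median of 0.416, against 0.404 elsewhere. RelA values at 3 h entered the choice of the windows, so these figures are a description.

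**Figure D3:**
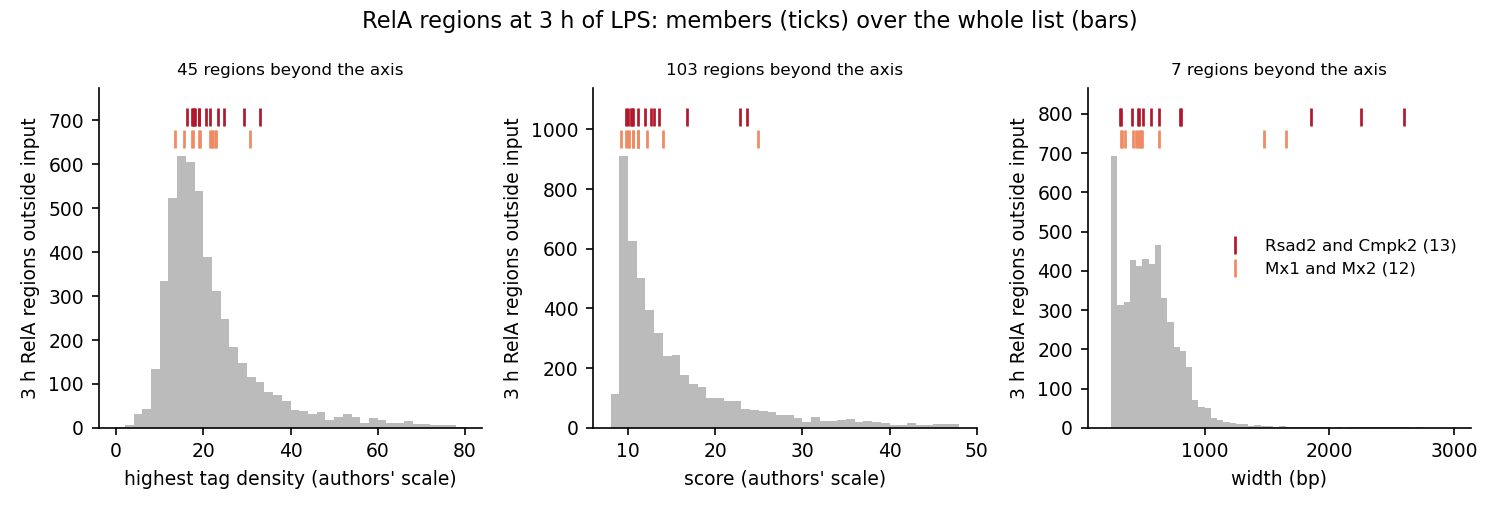
Highest tag density, score and width of the 3 h RelA regions outside input (grey bars, number of regions per bin) with the members as ticks, dark for Rsad2 and Cmpk2 and light for Mx1 and Mx2. Members lie in the body of the tag density and score distributions, while 5 of them exceed 1000 bp in width.

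The regions of the Rsad2 and Cmpk2 window were closely packed. The windows were chosen for holding many 3 h regions, so the size of their groups follows in part from that choice and is given as a description. With neighbours at most 2000 bp apart, the 4972 regions at 3 h formed 4533 groups, of which 4188 held 1 region and 8 held 5 or more. The group of 11 was the largest, and the next held 6 regions, at chr11:86393914-86400945 and chr2:127160589-127165966. With a distance of 10000 bp all 13 sites of the window joined into the largest group of that kind, and the next, at chr11:117820995-117853564, held 12. The Mx1 and Mx2 window had groups of 4, 3 and 3 at 2000 bp and 1 of 8 at 10000 bp. Only 9 groups of the list held exactly 4 regions at 2000 bp.

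**Figure D4:**
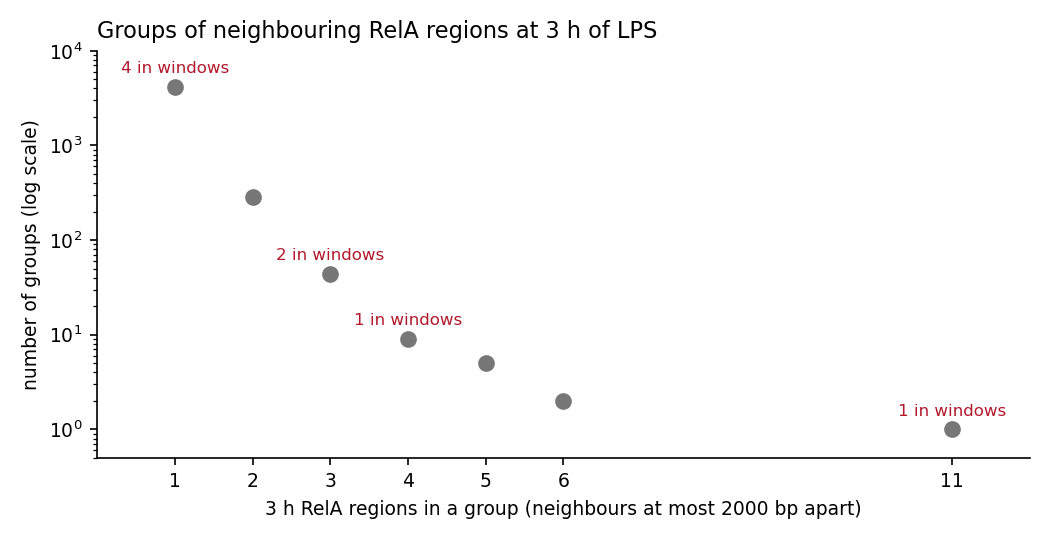
Number of groups of neighbouring 3 h RelA regions (log scale) by the number of regions in the group, neighbours being at most 2000 bp apart; red text counts the groups in the windows. The group of 11 in the Rsad2 and Cmpk2 window stands alone to the right of the groups of 6.

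At 8 h of LPS 1 weak RelA region was listed at the leading site of each window. In the Rsad2 and Cmpk2 window this was chr12:27126414-27126665, with a tag density of 14.8 and a score of 11.2 at 8 h, inside the first site of the 3 h group, which had 33.0 and 22.8. In the Mx1 and Mx2 window it was chr16:97667031-97667282, with a tag density of 15.4 and a score of 10.99 at 8 h, inside the leader of the first group, which had 30.7 and 24.9 at 3 h. Both 8 h regions were 251 bp wide, the smallest width in the list, which 60 of its 1890 regions had. Both met a 3 h region and neither met a GR region, while 83.9% of the 1878 regions at 8 h outside input met a 3 h region and 85.8% a GR region of LPS and Dex. They covered 9.67% and 15.2% of the 3 h sites they met. Within the 8 h list they were near the bottom, since 88 and 101 of the 1890 regions had a lower tag density and 98 and 24 a lower score. The 8 h list began at a score of 10.9 and the 3 h list at 8.88, and 14 of the 25 sites had a 3 h score of 10.9 or more. With scores of at least 11 in every list, 1 of 14 members was called at 8 h, against 42.3% of 3306 regions elsewhere. The windows were chosen for few RelA regions at 8 h, so this difference follows from the choice and is not a finding.

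GR was set against the RelA sites although the cells for RelA had no Dex and the cells for GR did. The rule behind the windows used RelA values and no GR values, but the 8 h calls that entered it go with GR overlap. Of the 1878 regions at 8 h outside input, 85.8% met a GR region of LPS and Dex. Of 3393 regions at 3 h elsewhere that were not called at 8 h, 50.2% did. Windows chosen for few regions at 8 h would thus tend toward a lower GR share, so the shares below are not independent of the choice. Both GR lists were long, with 51639 regions for LPS and Dex and 55196 for Dex alone, so a few GR regions in a window are no finding by their number. Of the 25 RelA sites, 2 met a GR region of LPS and Dex (8.00%, Wilson 95% interval 2.22 to 25.0), against 62.0% of all 4972 RelA regions at 3 h. None met a GR region of Dex alone, with a Wilson upper bound of 13.3%, against 17.5% of all. Of the 66 regions elsewhere with 5 or more other 3 h regions within 10 kb, 10.6% (5.23 to 20.3) met one. Of the 12 members packed as closely, 0 met one, with an upper bound of 24.2%, so they are not set apart from such regions elsewhere. Members packed less closely also gave 0, where the shares elsewhere were 11.3 to 18.6%. The share with LPS and Dex was 1 of 13 in the Rsad2 and Cmpk2 window (7.69%, 1.37 to 33.3) and 1 of 12 in the Mx1 and Mx2 window (8.33%, 1.49 to 35.4). Neighbouring sites are not independent of each other, so no test was made over them and the intervals are likely too narrow.

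In like sets of regions elsewhere the share meeting GR of LPS and Dex was higher, a difference that was not tested. It was 50.2% (48.5 to 51.8) of the 3393 regions at 3 h that were not called at 8 h, and 59.9% (58.4 to 61.5) of the 3941 with scores in the members' range. Among the 200 regions elsewhere wider than 1000 bp it was 84.0% (78.3 to 88.4), while 0 of the 5 broad members met GR (0 to 43.4). The nearest set was that of the 66 regions elsewhere with 5 or more others within 10 kb, of which 40.9% (29.9 to 53.0) met GR. These 66 are also neighbours of each other within groups, so their interval is likely too narrow as well. The 12 members packed as closely gave 1, or 8.33% (1.49 to 35.4), and these intervals overlap. All 12 lie in the Rsad2 and Cmpk2 window, as the group of 11 and the site at chr12:27144956-27145278. They come from 1 locus and are not 12 separate cases, so the overlap of intervals decides nothing. Of the 3 members with a score of at least 20, 0 met a GR region (0 to 56.1%), against 84.7% (82.4 to 86.7) of 1058 such regions elsewhere. These 3 are among the 5 broad members above, so their count is not separate from that one.

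**Figure D5:**
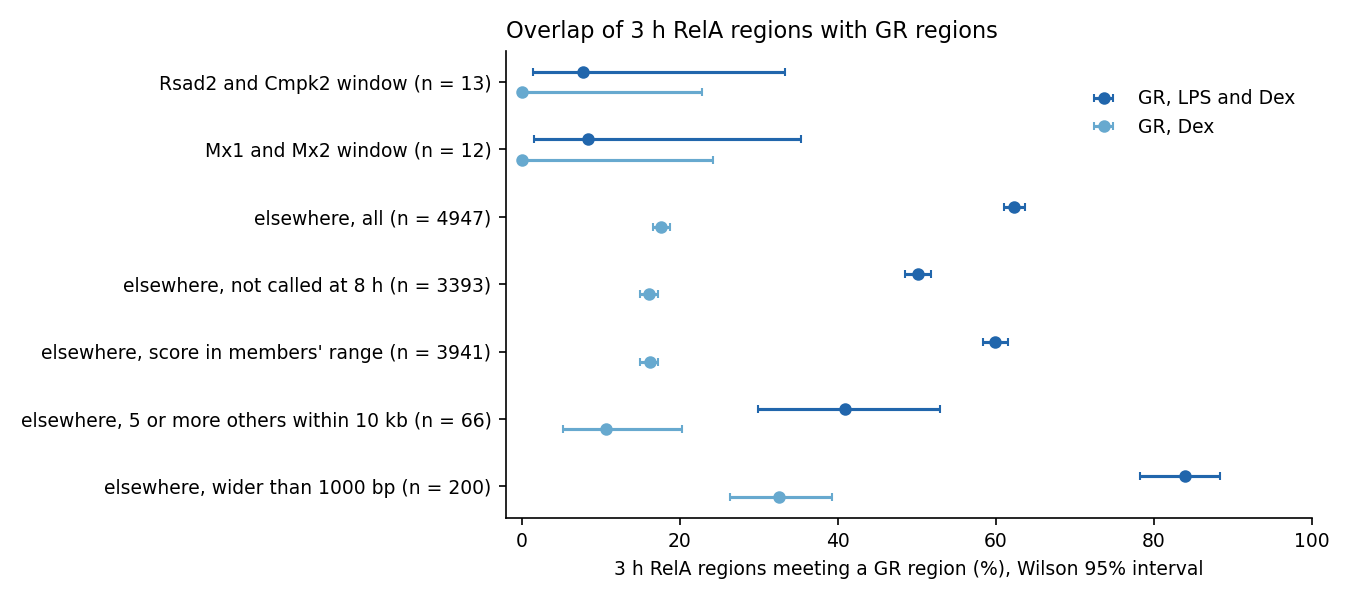
Share of 3 h RelA regions meeting a GR region (%), with Wilson 95% intervals, for the windows (top) and for sets of regions elsewhere; dark points are GR with LPS and Dex and light points GR with Dex. Both windows lie at about 8% for LPS and Dex, and the sets elsewhere between 40.9 and 84.0%.

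GR regions of LPS and Dex stood beside the Rsad2 and Cmpk2 group rather than in it. The window held 2 of them and no GR region of Dex alone. The first, chr12:27124035-27124740, had a tag density of 26.9 and a score of 27.9, and ended 886 bp before the group of 11 RelA sites. The second, chr12:27144777-27145554, had 39.0 and 46.7 and began 3222 bp after it. This second region covered the whole weak RelA site at chr12:27144956-27145278, with centres 48.5 bp apart. Lower tag densities than at these regions were found at 88.6% and 94.1% of that GR list, and no GR region of either library lay between them. The nearest GR region of Dex alone was 41753 bp from the group. How many regions of the list of LPS and Dex lack a region of Dex alone was not counted. The absence of Dex alone from this window is therefore not read as particular to it.

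The Mx1 and Mx2 window held 4 GR regions of LPS and Dex and 1 of Dex alone. The strongest, chr16:97693899-97694628, had a tag density of 45.0 and a score of 40.8 with LPS and Dex, and shared 443 bp with the single RelA site at chr16:97694185-97694676. It was not listed with Dex alone, and how often that holds across the list of LPS and Dex was not counted. The other 3 were weak, with tag densities of 2.67 to 3.34, and lay together from 97711655 to 97713305, where no RelA was listed. The last of them overlapped the GR region of Dex alone, chr16:97712825-97713076, whose tag density was 2.39. The first 7 RelA sites, those of the groups of 3 and 4, were 9275 to 25331 bp from the nearest GR region of LPS and Dex, and the last 4 were 25687 to 44010 bp from it.

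Strong regions of other kinds lay just past the edges of the windows. On chromosome 12, 13545 bp before the window, RelA was called at 8 h with a tag density of 37.7 (chr12:27075835-27076455) and at 3 h with 29.4, under a GR region of LPS and Dex with 41.9. A GR region 6106 bp before the window had a tag density of 35.2 with LPS and Dex and overlapped 1 of 11.2 with Dex alone. On chromosome 16, 14418 bp past the window, GR had a tag density of 71.5 with LPS and Dex and 19.4 with Dex alone, and no RelA was listed there. The outermost RelA sites inside the windows lay at chr12:27125626-27128222 and chr12:27154032-27154834, and at chr16:97666912-97668568 and chr16:97785282-97785705, so the edges cut through no group of RelA sites.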

How the data were processed

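The deposited files are 1 list of enriched regions per library on mm9. The submitters' processing notes name the software CASAVA. Region caller, threshold and library depths are not given there or in the labels. The deposited tag density, highest and mean per region, is a signal whose scaling between libraries is unknown. The deposited score (a z-score) and p-value are those of the same region. The p-values were not used further.

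An overlap meant at least 1 shared bp, and regions overlapping input were left out of overlap shares. Shares carry Wilson 95% intervals (scipy 1.17.1), and the overlap code was tested on simulated regions. Described were every RelA site of the windows, the GR regions meeting them and the 5 GR regions of highest tag density per list and window. Members and lists were chosen with earlier results of these data known. Groups of neighbours, the bounds of 1000 bp and of a score of 20, and sets of like regions were chosen after seeing the data.

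Per the labels' protocols, formaldehyde was used at 1% for 10 min, and disuccinimidyl glutarate at 2 mM for 30 min came first for GR. Alternatives were a score of at least 11, other windows, other definitions of overlap and a GR tag density of at least 10.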

Additional observations from a re-analysis of the deposited data

How the results depend on the processing

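Of 131 alternative values for 27 results, 111 stayed close to the value reported: counts within 1.5 times, shares within their Wilson interval. Many of these could not have moved, so the tally is no measure of stability. A value of 0 stays 0 under a higher score or narrower windows. As no region of the windows overlapped input, leaving out or keeping such regions changed nothing. Keeping only scores from 11 upward, the 3 h RelA regions numbered 8 for Rsad2 and Cmpk2 and 6 for Mx1 and Mx2, the 8 h region of Mx1 and Mx2 was lost (0 regions, and so 0% of its 3 h sites kept at 8 h), and 0% of the 3 h regions of either window met GR of LPS and Dex, against 68.2% of regions elsewhere. Windows widened by 50000 bp at each end held 2 RelA regions at 8 h, 4 GR regions of LPS and Dex and 1 of Dex on chromosome 12, and 2 GR regions of Dex on chromosome 16. With a GR tag density of at least 10, the Mx1 and Mx2 window held 1 GR region of LPS and Dex and 0 of Dex. When 50% of both regions had to be shared, 0% of the sites in each window were called at the later time, as with centres within 250 bp, and 0% in the Rsad2 and Cmpk2 window met GR of LPS and Dex, since the narrow regions lie inside broad ones or the reverse. Largest groups at neighbour distances of 5000 and 10000 bp, alternatives added after seeing the data, held 12 and 13 regions for Rsad2 and Cmpk2, 4 and 8 for Mx1 and Mx2, and 10 and 12 elsewhere. No paired analysis was possible because each condition had 1 library. Depth is unknown and the lists begin at different scores, which limits any reading of a region not listed.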

Other observations

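Other close groups of RelA regions at 3 h differed in how many of their regions met GR of LPS and Dex. At most 2000 bp between neighbours, the group of 6 at chr11:86393914-86400945 had 2 regions that met it and 2 that were called at 8 h, and the group of 6 at chr2:127160589-127165966 had 1 of each. Of the 5 groups of 5, that at chr6:116616014-116623102 had 4 regions that met GR and 3 that were called at 8 h, and that at chr11:83336778-83350468 had 3 and 2. The group at chr12:112679700-112687106 had 2 and 1, that at chr2:164246458-164250952 had 1 and 0, and that at chr11:117826738-117830670 had 0 and 0. None of the regions in these groups was called with late Dex. Among all 4972 regions at 3 h outside input, 62.0% met GR of LPS and Dex and 31.3% were called at 8 h. With late Dex 4.24% were called, so the absence of late Dex from these groups is near the background and says little. These are all groups elsewhere with 5 or more regions, a bound set after the data had been seen, and their genes were not looked up because the gene table is on another build.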
